A study of Mus musculus with 24 samples.

Results

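Expression changes that followed Ptn knockdown in the same direction in both E0771 and E0771-LG mouse breast cancer cells were examined by RNA sequencing. All 12 cell samples among the 24 samples of the study were used. The average effect of the PTN shRNA (shPTN) against the control vector (shCtrl) was estimated with cell line as a block, and the effect in each line was estimated beside it. A gene was counted as shared when its adjusted p was under 0.05 for the average and in each line, with the same sign in both lines. Of 10234 genes tested, 715 were shared in this sense.

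E0771 is a mammary adenocarcinoma line of C57BL/6 mice, and the E0771-LG line comes from one of its lung metastases. Each line was analysed as 3 samples with pLKO.1-puro carrying a sequence against EGFP (E0771shCtrl and E0771-LGshCtrl) and 3 samples with an shRNA against PTN (E0771shPTN and E0771-LGshPTN), which the authors describe as biological replicates. The methods give a single PTN shRNA construct for both lines, and puromycin selection for either vector lasted several weeks. Loss of Ptn, other effects of this construct and differences between separately selected populations therefore cannot be told apart, and a change shared by both lines is shared by cells that carry the same construct. The remaining 12 samples were tumors of mice treated with an antibody to PTN or a control antibody, and they enter only a description at the end.

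Pleiotrophin, the product of Ptn, is a secreted heparin-binding cytokine related to midkine. It binds the chondroitin sulfate chains of receptor phosphatases such as PTPRZ1, heparan sulfate proteoglycans such as syndecans and glypicans, and cell surface proteins such as nucleolin and integrin αvβ3. In development it acts on neurons and blood vessels, and in breast tumors it is known as a factor from cancer cells and stroma that acts on angiogenesis and matrix remodelling.

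Samples held 15.63 to 21.12 M gene reads (median 18.05 M). The depth lay between 16.61 and 20.42 M in E0771shCtrl, 15.63 and 19.32 M in E0771shPTN, 17.3 and 19.59 M in E0771-LGshCtrl, and 17.43 and 21.12 M in E0771-LGshPTN, so the ranges of the groups overlapped. Values are log2 CPM (counts per 1 M gene reads). Across genes, which are not independent replicates, samples of the same group correlated with r between 0.974 and 0.992.

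Markers of the cell types that the samples could hold were read first. Of 11 mammary epithelial markers, 10 are in the table, and Krt8, a keratin of simple epithelia, was the most abundant. Cdh1, Cldn3, Cldn4, Cldn7, Elf5 and Krt19 had at most 10 reads in every sample, so the defining junction genes of epithelium were at or near 0 in both lines. The summed level of the epithelial markers was 99.7 to 114 CPM in E0771shCtrl, 99.9 to 116 in E0771shPTN, 159 to 204 in E0771-LGshCtrl and 424 to 565 in E0771-LGshPTN. Of the 18 leukocyte markers 13 are in the table and 2 were tested, and Ptprc (CD45), which all leukocytes carry, had at most 13 reads in any sample. Tyrobp and S100a9 had 0, while S100a8, the partner of S100a9, had 24 to 153. The 5 endothelial markers in the table, of which 0 were expressed highly enough to be tested, together came to between 1.01 and 3.43 CPM, and the 5 muscle markers to between 4.2 and 13.5 CPM.

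Ptn (ENSMUSG00000029838) lies on the minus strand of chromosome 6, chr6:36714929-36810220 in GRCm38. Its expression was 2.90, 2.18 and 2.28 log2 CPM in E0771shCtrl and −0.63, 0.25 and 0.53 in E0771shPTN. In E0771-LG cells it was 3.65, 4.51 and 3.74 in shCtrl and 1.42, 0.98 and 1.38 in shPTN. Every knockdown sample lay below every control sample of its line, and control cells of E0771-LG started from a higher level. Averaged over the lines, Ptn changed by −2.55 on the log2 scale (SE 0.25, adjusted p = 1.93e-05 by limma). The effects in the lines differed by −0.30 (SE 0.48, adjusted p = 0.647), less than the error of the difference. The exact two-sided permutation p was 0.1 in each line, the smallest that 3 samples against 3 allow. Bulk RNA cannot tell fewer cells that express a gene from less of its RNA per cell, here and in all results that follow.

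Both annotated Ptn transcripts with a 3′ UTR hold stretches with CAAACAG or AAACAGA, words that overlap by all but 1 base. They are shown because the same words are frequent in the 3′ UTRs of the shared genes described below. All lie on the minus strand of GRCm38, and capitals mark the word, or both words where they overlap. The coding site is at chr6:36743370-36743399, the 3′ UTR site of Ptn-201 at chr6:36715651-36715679, and that of Ptn-202 at chr6:36740481-36740509.
Ptn coding sequence: ggcgccgagtgCAAACAGAccatgaagact
Ptn-201 3′ UTR: aagggcatcagCAAACAGgatcagttaat
Ptn-202 3′ UTR: aggagattaggAAACAGAcaccctcagag

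For the average effect, 1511 genes (14.8%) were lower and 1144 (11.2%) higher with shPTN. In E0771 cells 1098 genes (10.7%) were lower and 786 (7.68%) higher, and in E0771-LG cells 2523 (24.7%) were lower and 2697 (26.4%) higher. Of the genes called in both lines, 503 were shared and lower (4.91% of genes tested), 212 were shared and higher (2.07%), and 344 had opposite signs (3.36%). The 1059 genes called in both lines made up 56.2% of those called in E0771 and 20.3% of those called in E0771-LG cells, beside 51% of all genes called in E0771-LG and 18.4% in E0771 cells. If calls fell independently in the lines, the product of the shares would give 271 lower, 207 higher and 483 opposite genes. The lower count was above this, the higher count about equal to it and the opposite count below it. Both lines were called from the same fit, with an error estimate for each gene that the lines share. Calls in the lines were therefore not independent, and the products cannot show which counts exceed chance. Shared genes were lower in 70.3% of cases, and in 63.7% and 64.5% with quantile and median-of-ratios scaling, although E0771-LG cells alone had more higher than lower genes. The effects in the lines correlated weakly across all genes (r = 0.13), and 3553 genes (34.7%) differed between the lines by the interaction term. Among the shared genes 133 differed in size between the lines.

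The shared changes were mostly moderate. Where changes or medians are given as a pair, the first is for E0771 and the second for E0771-LG cells. Over the 503 lower genes the median log2 fold changes were −0.55 and −0.67 for E0771 and E0771-LG, and over the 212 higher genes it was 0.60 and 0.58, beside −0.03 and 0.05 over all genes tested. An absolute log2 fold change of at least 1 in both lines was reached by 33 lower and 24 higher genes. At the edge of the rule, Gnptab was just inside, with −0.26 in E0771 (adjusted p = 0.0498) and −0.40 in E0771-LG cells (adjusted p = 0.00193). Rab27b was just outside, with −1.06 (adjusted p = 0.00284) and −0.52 (adjusted p = 0.0503).

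The number of genes lower and higher on average was 2269 and 2038 with 4 group means in place of a line term, and 949 and 527 with the replicate number as a block. Several counts rest on single libraries. Without replicate 2 of E0771shCtrl there were 295 lower and 125 higher shared genes and 189 with opposite signs. The number of higher shared genes was 139 without replicate 3 of E0771shCtrl and 124 without replicate 3 of E0771shPTN, and that with opposite signs was 165 and 184. It was 217 without replicate 2 of E0771shPTN. The number of genes higher on average was 747 without replicate 3 of E0771-LGshCtrl, and 700, 710 and 738 without replicates 1, 2 and 3 of E0771-LGshPTN.

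**Figure D1:**
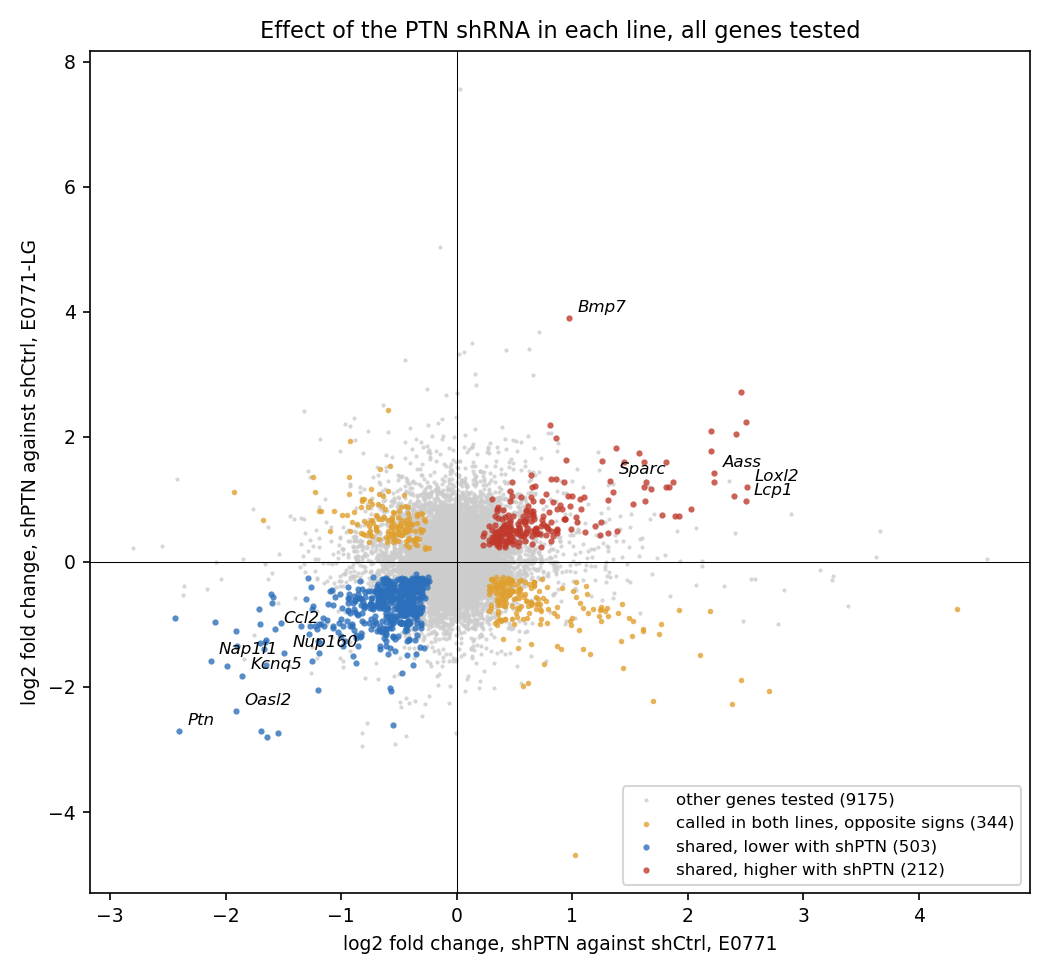
Log2 fold change of each gene tested in E0771 cells (horizontal) and E0771-LG cells (vertical), shPTN against shCtrl, with shared lower genes in blue, shared higher genes in red and genes called with opposite signs in orange. The 503 lower and 212 higher shared genes fill the lower left and upper right, and 344 genes fill the other corners.

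The leading losses were chosen among shared genes that showed no overlap of groups and were expressed at 3 log2 CPM or more, so the absence of overlap in the leading genes follows from the choice. They have varied functions. Oasl2, an oligoadenylate synthetase-like protein induced by interferon, changed by −1.91 and −2.39. Its values were 3.94, 4.72 and 4.32 log2 CPM in E0771shCtrl, 2.38, 2.01 and 2.89 in E0771shPTN, 3.48, 5.64 and 3.87 in E0771-LGshCtrl, and 1.42, 2.40 and 2.00 in E0771-LGshPTN. The groups did not overlap, but replicate 2 of E0771-LGshCtrl stood far above the other controls. The adjusted p of Oasl2 in E0771 cells was 0.0196, and it rose to 0.0783 without replicate 2 and 0.0583 without replicate 3 of E0771shCtrl, to 0.0627 without replicate 1 and 0.0783 without replicate 2 of E0771shPTN, and to 0.0654 with voom weights. Cmpk2, a mitochondrial nucleotide kinase that interferon also induces, changed by −1.69 and −2.70 in the respective lines.

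Ereg encodes epiregulin, a ligand of the EGF receptor. Its expression was 4.98, 5.65 and 5.27 log2 CPM in E0771shCtrl and 3.43, 2.94 and 3.55 in E0771shPTN. It was 4.93, 5.04 and 4.62 in E0771-LGshCtrl and 2.76, 3.58 and 3.24 in E0771-LGshPTN. The control levels of the lines were alike and so were the knockdown levels, with an average change of −1.83 (SE 0.17, adjusted p = 1.35e-05). Itga6, the integrin α6 chain of laminin receptors, went from 7.24, 7.69 and 7.43 to 5.71, 5.75 and 5.87 in E0771, and from 6.95, 7.24 and 7.30 to 5.76, 5.74 and 5.82 in E0771-LG cells. Its 6 knockdown samples lay within a narrow range in both lines, and its average change was −1.54 (SE 0.10, adjusted p = 4.1e-07). Sele, or E-selectin, an adhesion receptor for leukocytes best known from activated endothelium, changed by −1.65 in each line, with 380 to 995 reads per E0771shCtrl sample and 171 to 184 per E0771shPTN sample.

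Kcnq5, a voltage-gated potassium channel, changed by −1.86 in E0771 (SE 0.14) and −1.82 in E0771-LG cells (SE 0.14), and the interaction term was 0.04 (adjusted p = 0.88). Its values were 4.37, 4.61 and 4.32 log2 CPM in E0771shCtrl and 2.39, 2.51 and 2.82 in E0771shPTN. In E0771-LG cells they were 6.11, 5.92 and 6.09 with shCtrl and 4.34, 4.12 and 4.21 with shPTN, so a similar loss was set on a higher starting level. Nup160, a subunit of the nuclear pore, changed by −1.49 and −1.46, and Lin7c, a scaffold protein of cell polarity complexes, by −1.25 and −1.59. Slc47a1, an exporter of organic cations, changed by −1.90 and −1.35, and Rad54l2, a helicase of the SNF2 family, by −1.70 and −1.30.

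Nap1l1, a histone chaperone, went from 9.52, 9.47 and 9.30 to 7.38, 7.10 and 7.40 log2 CPM in E0771 and from 9.42, 9.06 and 9.15 to 7.85, 7.63 and 7.42 in E0771-LG cells. Gm4204, which changed by −1.65 and −1.25, is annotated as a processed pseudogene. Of its 1207 words of 25 bases, 1118 (92.6%) also occur in Nap1l1 transcripts. Reads of these genes could be split between them in counting, so the signal of each is uncertain. Both are still counted as separate genes in the tallies given here.

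The 3′ UTRs of the shared lower genes often held the words CAAACAG or AAACAGA that occur in Ptn. Either word was present in 295 of 498 shared lower genes with an annotated 3′ UTR (59.2%), in 26 of 209 shared higher genes (12.4%), in 25.6% of the genes with opposite signs and in 26.5% of all 10042 tested genes with a 3′ UTR. Among the lower genes with a change of at least 1 in both lines it was present in 20 of 31, and among the higher genes with such a change in 6 of 24. Of the 12 leading losses named by rule, Kcnq5, Cmpk2, Nup160, Slc47a1, Rad54l2 and Lin7c hold a word, Oasl2, Ereg, Sele, Nap1l1 and Itga6 hold neither, and Gm4204 has no annotated 3′ UTR. A site in each of 5 of these genes is printed here to show the word in its surroundings, with capitals as before.
Kcnq5 3′ UTR: ttctcattttgCAAACAGActgctactcaa
Cmpk2 3′ UTR: aataaaaatatAAACAGAaaaacaaacaa
Nup160 3′ UTR: tcctttatctgCAAACAGAaactcaccttc
Slc47a1 3′ UTR: ccaagagatatAAACAGAaagacaaagag
Rad54l2 3′ UTR: ctgctggtcaaAAACAGAaagggagagaa

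In GRCm38 these sites are at chr1:21399768-21399797 on the minus strand for Kcnq5, chr12:26479332-26479360 on the plus strand for Cmpk2 and chr2:90735786-90735815 on the plus strand for Nup160. The sites of Slc47a1 and Rad54l2 are at chr11:61344040-61344068 and chr9:106691559-106691587, both on the minus strand. Rad54l2 holds 4 such sites and Kcnq5 holds 2.

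Long 3′ UTRs hold any word more often, and the shared lower genes had longer ones, with a median of 2338 bases against 1400 for all tested genes and 1012 for the shared higher genes. The share of lower genes was therefore read within 4 bins of 3′ UTR length with equal numbers of genes. From the shortest to the longest bin, 9.66%, 8.83%, 10.9% and 12.1% of genes with either word were shared and lower, against 1.48%, 1.87%, 3.45% and 5.82% of genes with neither word. The share was higher with a word in each bin, and it also grew with length among genes with neither word. Length still varied within a bin, from 2532 to 122583 bases in the longest, so the bins do not hold it constant. Over all genes, the median change in E0771-LG cells went from 0.35 in the shortest bin to −0.25 in the longest, while in E0771 cells it lay between −0.07 and −0.01. When all 12444 words of 7 bases found in at least 300 of these 3′ UTRs were ordered by the ratio of their frequency in shared lower genes to that in all genes, CAAACAG came first (34.5% against 13.8%, ratio 2.50) and AAACAGA next (49.0% against 20.1%, ratio 2.44). The following word, TGTCGTT, had a ratio of 2.35. These words had been singled out with results of the same samples known, so the shares by bin and the order are descriptions. The part of the words in the losses was not tested. The paper gives a supplier's identifier for the PTN shRNA construct. Its guide sequence was not available here, so it could not be compared with the words. Losses that follow Ptn cannot be told apart from other effects of the construct.

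**Figure D2:**
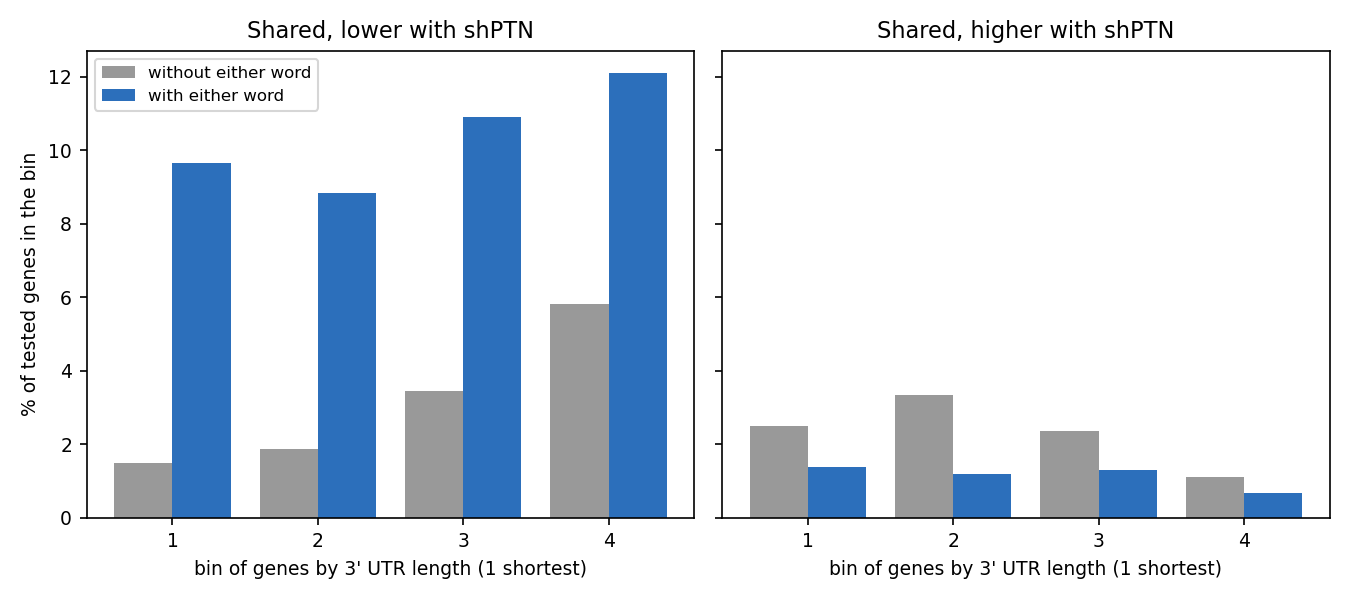
Percent of tested genes that were shared and lower (left) or shared and higher (right), by bin of 3′ UTR length (1 shortest, 4 longest) and by whether the 3′ UTR holds CAAACAG or AAACAGA (blue) or neither (grey). Genes with a word were lower in 8.83% to 12.1% of cases, against 1.48% to 5.82% without one. The words were singled out with results of the same samples known, and length varies within each bin.

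The leading gains, chosen in the same way, also have varied functions. Spata13 rose by 1.62 and 1.59, and of the 12 leading gains only Spata13 and Lyz2 hold a 3′ UTR word. Sparc encodes a secreted protein that binds collagen. Its expression was 8.38, 8.29 and 8.34 log2 CPM in E0771shCtrl and 9.80, 9.53 and 9.66 in E0771shPTN. In E0771-LG cells it rose from 5.47, 5.68 and 5.54 to 6.74, 6.93 and 6.94. The lines differed in level, yet the change was 1.33 and 1.30, with an average SE of 0.07 and an adjusted p of 3.54e-07. Loxl2, a lysyl oxidase-like enzyme that cross-links collagen, rose from 3.52, 4.03 and 3.87 to 6.28, 6.34 and 6.33 in E0771 and from 4.01, 4.72 and 4.23 to 5.24, 5.66 and 5.68 in E0771-LG cells. Its gain was larger in E0771 cells (interaction −1.31, adjusted p = 0.00156), and 47.6% of its words of 25 bases occur in other annotated genes, chiefly Gm21451, so its reads may be split. Htra1, a secreted serine protease, rose from 5.38, 5.24 and 5.23 to 7.16, 7.06 and 7.15, and from 4.95, 5.47 and 5.16 to 6.38, 6.34 and 6.42.

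Aass, the enzyme of the first steps of lysine degradation, rose from 3.44, 3.20 and 3.41 to 5.49, 5.75 and 5.50 log2 CPM in E0771 and from 4.92, 4.94 and 4.90 to 6.04, 6.48 and 6.51 in E0771-LG cells. Slc25a21, a mitochondrial carrier of oxodicarboxylates made in the same pathway, rose by 1.68 and 1.17. Other leading gains were Gadd45b, a stress-induced protein (1.62 and 1.19), the homeobox gene Hoxc6 (1.35 and 1.11) and Itga7, another laminin-binding integrin chain (1.63 and 0.98). Lcp1, which bundles actin and is abundant in leukocytes, rose by 2.50 and 0.97, and Tle5, a Groucho-related corepressor, by 0.96 and 1.06. Other annotated genes hold 21.6% of the words of 25 bases in Lcp1.

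Lyz2, which encodes lysozyme, also belongs to the list of 18 leukocyte markers. It rose from 2.65, 2.79 and 2.73 to 5.21, 4.67 and 4.99 log2 CPM in E0771 and from 1.23, 1.83 and 2.04 to 2.64, 3.10 and 3.17 in E0771-LG cells. Over all samples it was the most abundant of the 13 leukocyte markers in the table, but S100a8 was above it in E0771-LGshCtrl (mean 2.06 against 1.70). The summed level of these markers was at most 13.8 CPM in E0771shCtrl, 28.2 to 46.2 in E0771shPTN, 6.62 to 11.7 in E0771-LGshCtrl and 11.9 to 20.7 in E0771-LGshPTN. Adgre1, Cd3e, Cd8a, Fcer1g, Itgam, S100a9 and Tyrobp, which mark macrophages, T cells and myeloid cells, had at most 10 reads in every sample. Other markers of such cells had more, with up to 36 reads for Cd3d, 26 for Cd74 and 14 for Csf1r, and 24 to 153 for S100a8. Lyz1 shares 40.5% of the words of 25 bases in Lyz2, so the count of Lyz2 is uncertain.

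Some weakly expressed genes outside the rule for named genes had larger gains, and they were picked after their values were seen. Ldhb, the heart-type subunit of lactate dehydrogenase, had means of 0.11 log2 CPM in E0771shCtrl and 2.57 in E0771shPTN, and of −0.28 and 2.42 in E0771-LG cells, changes of 2.46 and 2.71. Mgll, a lipase that releases fatty acids from monoglycerides, rose by 2.50 and 2.23, and Antxr1, an anthrax toxin receptor that binds collagen, by 2.42 and 2.04.

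**Figure D3:**
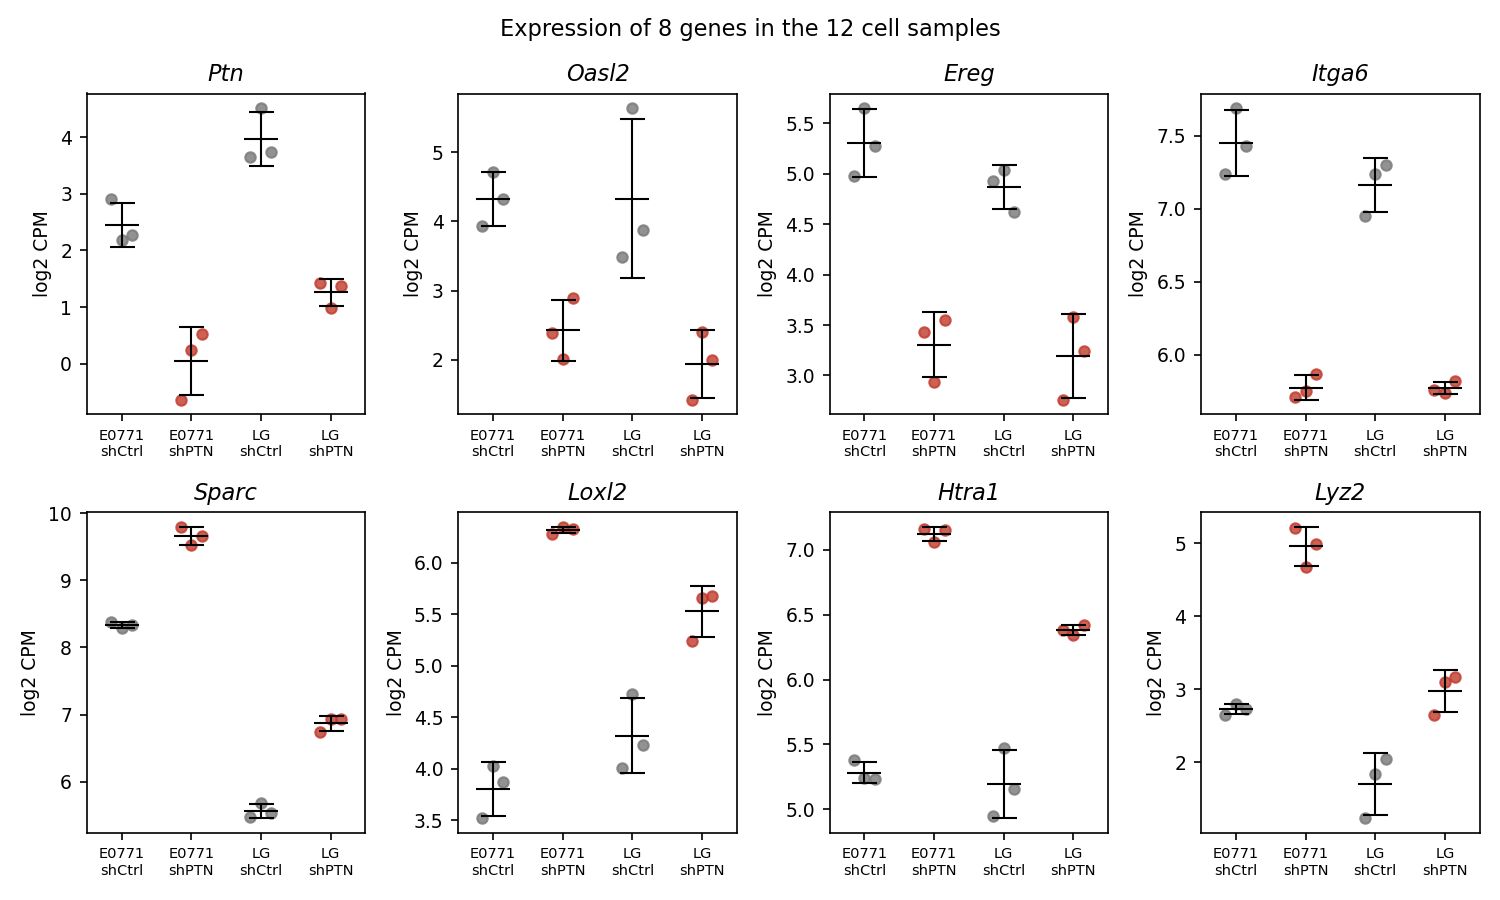
Expression in log2 CPM of Ptn and 7 leading shared genes in each of the 12 samples, with shCtrl in grey and shPTN in red, and horizontal bars for the mean and SD of 3 samples. Oasl2, Ereg and Itga6 were lower and Sparc, Loxl2, Htra1 and Lyz2 higher with shPTN in both lines, and absence of overlap was a condition for choosing them.

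Of 19 genes listed for PTN, midkine and their partners, 16 are in the table and 11, including Ptn, were tested. Ptn was shared, and neither Ptprz1 nor midkine (Mdk) is among the 11. Counts over this and the following lists stand beside 4.91% of all genes shared and lower, 2.07% shared and higher and 3.36% with opposite signs. The list medians were 0.20 and 0.01 for E0771 and E0771-LG, beside −0.03 and 0.05 over all genes. The glypican Gpc1 was higher on average (0.47, adjusted p = 0.00927), with 0.57 in E0771 (adjusted p = 0.0147) and 0.37 in E0771-LG cells (adjusted p = 0.0509). It was shared with the replicate number as a block, with a pseudocount of 1 CPM, with quantile and median-of-ratios scaling, and without replicate 2 of E0771-LGshCtrl. The syndecan Sdc1 was also higher on average (0.32, adjusted p = 0.00889), and shared with quantile scaling and without replicate 2 of E0771shPTN. Itgav, the αv chain, and the syndecan Sdc2 were lower on average, with changes of −0.13 and −0.96 for Itgav and −0.04 and −0.79 for Sdc2 in E0771 and E0771-LG cells. Fitted with replicate blocks, the average adjusted p was 0.0515 for Itgav and 0.0845 for Sdc2. That of Sdc2 was 0.0555, 0.0587 and 0.0641 without replicates 1, 2 and 3 of E0771-LGshCtrl and 0.0666, 0.0693 and 0.0671 without those of E0771-LGshPTN. These averages came mainly from E0771-LG cells, since the difference between lines was −0.83 (adjusted p = 0.000595) and −0.75 (adjusted p = 0.00133). Sdc4 changed by 0.59 in E0771 (adjusted p = 0.00562) and by −0.07 in E0771-LG cells (adjusted p = 0.683). The average adjusted p was 0.116 for nucleolin (Ncl), 0.118 for Cspg5, 0.963 for Lrp1, 0.375 for Itgb3 and 0.91 for Ptprs, and none of these averages passed. Itgb3 passed in E0771-LG cells, with −0.77 (adjusted p = 0.0255), beside 0.20 in E0771 cells (adjusted p = 0.66).

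Of 44 interferon-stimulated genes tested, 8 were shared and lower and 0 shared and higher. The shared ones were Oasl2, Cmpk2, Gbp2, Gbp3, Ifit1, Ddx58, Oasl1 and Trim25, which take part in RNA sensing and defence against viruses and other intracellular microbes. The list medians were −0.62 and −1.18 for E0771 and E0771-LG, and 35 of 44 members were below 0 in both lines, against 27.9% of all genes. For the average effect 29 members were lower and 1 higher, beside 14.8% and 11.2% of all genes, and 4.91% of all genes were shared and lower. Gbp2, a guanylate-binding protein, went from 3.46, 4.11 and 3.46 to 2.31, 1.48 and 2.31 log2 CPM in E0771, and from 2.71, 3.38 and 2.63 to 0.38, −0.04 and 0.01 in E0771-LG cells. The loss was larger in E0771-LG cells, by −1.16 (adjusted p = 0.047). Gbp3 changed by −1.55 and −2.73. Replicate 2 of E0771-LGshCtrl stood above replicates 1 and 3 for Cmpk2 (5.06 against 3.82 and 3.79) and Gbp3 (4.21 against 3.09 and 2.87), as it did for Oasl2. Relative to the shCtrl mean of the line, the list median per sample was −0.48, 0.83 and −0.30 in E0771-LGshCtrl and −1.36, −1.01 and −0.88 in E0771-LGshPTN, and −0.27, 0.31 and 0.01 in E0771shCtrl and −0.61, −0.94 and −0.55 in E0771shPTN. Replicate 2 of E0771-LGshCtrl was thus high over the list, and the shPTN samples lay below all controls in each line. Gbp2 shares 7.18% and Gbp3 8.24% of their words of 25 bases with other genes, mostly of the same family, which limits the counts to that extent. Lgals3bp was called in both lines with opposite signs.

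The interferon-stimulated response element is the promoter motif bound by the ISGF3 complex and IRF factors, and its core was searched on both strands as GAAA, a gap of 2 bases and GAAA, in RefSeq promoters from 250 bases before to 50 bases after the start. Of the interferon list, 18 of 36 tested genes with a promoter held it, and of the 8 shared lower members 4 did, namely Ddx58, Gbp2, Gbp3 and Ifit1. These sites are printed in the direction of the gene, with the core in capitals, which here reads as its reverse complement.
Ddx58 promoter: ctgaggcagTTTCGATTTCctatggcca
Gbp2 promoter: ctcttttagTTTCACTTTCactgtctta
Gbp3 promoter: aggacacagTTTCAGTTTCtatttccca
Ifit1 promoter: aggcttcagTTTCACTTTCcagtctcag

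The sites lie in GRCm38 at chr4:40239805-40239832 on the minus strand for Ddx58, and on the plus strand at chr3:142620595-142620622 for Gbp2, chr3:142559990-142560017 for Gbp3 and chr19:34640776-34640803 for Ifit1. Across all shared genes the motif was about as frequent as elsewhere, in 3.27% of 490 promoters of lower genes, 2.28% of 219 promoters of higher genes and 2.87% of 10511 promoters of all tested genes. The AP-1 site TGANTCA was found in 5.31%, 5.48% and 5.17%, and the kappa-B site in 12.9%, 9.59% and 10.6%, in the same order. A match of letters is not evidence that a factor binds there.

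Of 26 NF-kB and AP-1 factors and inhibitors, 3 were shared and lower and 0 shared and higher, with medians of −0.33 and −0.07. On average 8 were lower and 0 higher, beside 4.91% of all genes shared and lower and 14.8% lower on average. Nfkbiz, a nuclear IκB protein that activates secondary response genes, changed by −0.65 and −0.47, but its adjusted p in E0771-LG cells was 0.0595 without replicate 2 of E0771-LGshCtrl and 0.0748 without replicate 1 of E0771-LGshPTN. Nfkb1, the p105 and p50 subunit, changed by −0.34 and −0.74. Its adjusted p in E0771 cells was 0.0204, and 0.0765 and 0.0568 without replicates 1 and 3 of E0771shCtrl, and 0.0674 and 0.0535 without replicates 1 and 2 of E0771shPTN. Ikbkg, the regulatory subunit of the IκB kinase, changed by −0.37 and −0.28, and lost its call in a line when any library other than replicate 1 of E0771shCtrl and replicate 1 of E0771-LGshCtrl was left out (larger adjusted p of the lines between 0.0501 and 0.169). In E0771-LG cells it also missed with separate fits (0.0778), no filter (0.0512), quantile scaling (0.0793), voom weights (0.0538) and eBayes without trend and robust (0.0625). With the last of these it missed in E0771 cells as well (0.0536). Jund and Nfkbia were called with opposite signs.

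Among 17 chemokines and cytokines tested, Ccl2 was shared and lower, Ccl25 shared and higher, and Tgfb2 called with opposite signs, with medians of 0.04 and −0.23. Ccl2 attracts monocytes. Its values were 6.12, 6.56 and 6.62 log2 CPM in E0771shCtrl, 5.36, 4.37 and 4.87 in E0771shPTN, 8.83, 9.02 and 8.84 in E0771-LGshCtrl, and 7.64, 7.97 and 7.86 in E0771-LGshPTN, so it fell in both lines from different levels. Ccl25, a chemokine for CCR9-bearing lymphocytes, changed by 0.45 and 0.44, and lost its call in a line without any library other than replicate 2 of E0771shPTN and replicate 1 of E0771-LGshCtrl (larger adjusted p of the lines between 0.0621 and 0.176). It also lost its call with the replicate number as a block (0.0643), separate fits (0.0576) and voom weights (0.0635) in E0771 and with quantile scaling in E0771-LG cells (0.133). Of 27 cytokine receptors and JAK-STAT genes, Osmr and Ifnar1 were shared and lower, 0 were shared and higher and 2 had opposite signs, with medians of 0.00 and −0.26. Osmr, the oncostatin M receptor, went from 3.72, 4.11 and 3.89 to 3.10, 3.01 and 3.22 in E0771 and from 4.01, 4.45 and 3.96 to 2.97, 3.00 and 3.55 in E0771-LG cells, with an adjusted p of 0.0554 in E0771 cells without replicate 2 of E0771shCtrl. Ifnar1, a chain of the type I interferon receptor, changed by −0.40 and −0.30. It lost its call in a line without replicates 2 or 3 of E0771shCtrl, 1 or 3 of E0771shPTN, 2 or 3 of E0771-LGshCtrl, or 1 or 3 of E0771-LGshPTN (larger adjusted p of the lines between 0.0508 and 0.143), and with separate fits (0.0801 in E0771-LG cells). The MHC class I list had 0 shared genes among 20 tested, with medians of 0.04 and 0.10, the second of which was −0.05 after quantile scaling. Its most abundant member, Calr, the chaperone calreticulin, changed by 0.15 and 0.13 (adjusted p = 0.265 and 0.235).

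The extracellular matrix split between the lines. Of 33 genes tested, 2 were shared and lower, 4 shared and higher and 7 called with opposite signs, with list medians of 0.68 for E0771 and −0.12 for E0771-LG. Besides Sparc and Loxl2, Col6a3 and Mmp14 were shared and higher. Lamc1, the laminin γ1 chain, changed by −0.91 and −1.02. Opposite signs were found for Thbs1, Plaur, Col4a2, Mmp2, Col1a1, Timp2 and Lamb1. The summed level of 10 fibroblast markers was 75.1 to 101 CPM in E0771shCtrl, 294 to 331 in E0771shPTN, 92.5 to 146 in E0771-LGshCtrl and 58.6 to 74.2 in E0771-LGshPTN. Pdgfra was the most abundant over all samples, but Col3a1 was above it in E0771shPTN, with means of 4.42 and 7.25 log2 CPM in E0771shCtrl and E0771shPTN and of 2.27 and 1.81 in E0771-LG cells. Lum, Postn and Thy1 had at most 10 reads in every sample. Of the 5 fibroblast markers tested 0 were shared and 3 had opposite signs, among them Pdgfra (1.43 and −0.68), and their part in the matrix changes was not tested.

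Of 21 integrins and adhesion genes tested, 4 were shared and lower, 2 shared and higher and 1 had opposite signs, with medians of −0.08 and −0.31. Together with Itga6, the lower ones were Itga2, Itga5 and Cd44, which bind collagen, fibronectin and hyaluronan. The list does not hold Itga7 or Sele, which were shared and are given above. Cd44 went from 8.66, 9.08 and 8.81 to 8.29, 8.43 and 8.34 log2 CPM in E0771 and from 8.96, 8.67 and 8.81 to 8.21, 8.21 and 8.30 in E0771-LG cells, a small loss without overlap. Itga2 changed by −1.66 and −1.28 on 14 to 99 reads per sample, with an adjusted p of 0.0512 in E0771 cells without replicate 2 of E0771shCtrl. Ncam1, a neural adhesion molecule, rose by 1.81 and 1.60, from 21 to 23 reads up to 62 to 101 in E0771 and from 33 to 104 reads up to 189 to 235 in E0771-LG cells. Epcam, the epithelial adhesion molecule, changed by 0.60 and 0.46. It lost its call in a line without replicates 2 or 3 of E0771shCtrl, 1 or 3 of E0771shPTN, any replicate of E0771-LGshCtrl, or 1 or 3 of E0771-LGshPTN (larger adjusted p of the lines between 0.0508 and 0.183), with separate fits (0.0545 in E0771) and with quantile scaling (0.148 in E0771-LG cells). The sum of the epithelial markers, of which Epcam is 1 of 2 tested, was higher in E0771-LGshPTN than in E0771-LGshCtrl as given above. The most abundant, Krt8, had means of 8.87 and 7.31 log2 CPM in these groups. Of the 10 markers in the table, 6 had at most 10 reads in every sample. The part of these markers was not tested.

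Of 14 epithelial and mesenchymal factors, 0 were shared and lower and 2 shared and higher, with medians of 0.24 and 0.15, the latter −0.03 after quantile scaling. Tpm2, a tropomyosin, changed by 0.37 and 0.33, with an adjusted p of 0.0679 in E0771 cells without replicate 2 of E0771shCtrl and 0.0542 without replicate 2 of E0771shPTN, and of 0.0803 in E0771-LG cells without replicate 2 of E0771-LGshPTN. Twist2, a mesenchymal transcription factor, changed by 0.50 and 0.33, and lost its call in a line without any library other than replicate 2 of E0771shPTN and replicate 3 of E0771-LGshPTN (larger adjusted p of the lines between 0.0528 and 0.13). In E0771-LG cells it also missed with separate fits (0.0505) and with quantile (0.123) and median-of-ratios scaling (0.0526). Acta2 was called with opposite signs. Of the muscle markers 2 were tested and 0 were shared, and the more abundant, Des, changed by 1.32 and 0.68 (adjusted p = 0.0242 and 0.142).

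In TGF-β and BMP signalling, 2 of 24 genes tested were shared and lower and 1 shared and higher, beside 4.91% and 2.07% of all genes, with medians of 0.01 and −0.29. Bmp7, a BMP ligand, rose from 2.53, 2.97 and 2.75 to 3.66, 3.79 and 3.71 log2 CPM in E0771, and from 0.02, −0.01 and 0.46 to 4.08, 4.22 and 3.86 in E0771-LG cells. The knockdown samples of both lines reached similar levels from different starting points, and the gain differed by 2.93 (adjusted p = 1.59e-05). The receptor Bmpr2 changed by −0.55 and −0.39. Smad5, which carries the BMP signal to the nucleus, changed by −0.34 and −0.82, with an adjusted p in E0771 cells of 0.0611 without replicate 2 of E0771shCtrl and 0.0522 without replicate 1 of E0771shPTN.

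Of 14 IGF and ERBB genes tested, 3 were shared and lower, 0 shared and higher and 1, Igf1r, had opposite signs. The list medians were −0.50 and −0.44, and 6 of 14 members were below 0 in both lines, against 27.9% of all genes. Insr, the insulin receptor, fell from 6.13, 6.59 and 6.49 to 5.18, 5.34 and 5.32 log2 CPM in E0771 and from 6.10, 6.22 and 6.28 to 5.37, 5.18 and 5.26 in E0771-LG cells. Hbegf, another ligand of the EGF receptor, changed by −0.90 and −0.66. Ereg and Hbegf, the ligands of that receptor among the shared members of the list, were thus both lower. Of 19 YAP and TAZ genes 0 were shared and 4 had opposite signs, with medians of 0.18 and −0.42, and Axl, a receptor tyrosine kinase, changed by 0.52 and −0.88.

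Genes of cell division were mixed. Of 37 genes tested, 2 were shared and lower, 3 shared and higher and 3 had opposite signs, with medians of 0.17 and −0.03, the latter 0.03 after quantile scaling. Rrm1, the large subunit of ribonucleotide reductase, fell from 8.72, 8.71 and 8.62 to 7.59, 7.73 and 7.64 log2 CPM in E0771 and from 10.14, 9.71 and 9.78 to 8.85, 8.70 and 8.74 in E0771-LG cells. Pola1, the catalytic subunit of DNA polymerase α, changed by −0.36 and −0.39, with an adjusted p in E0771 cells of 0.0771, 0.0828 and 0.0541 without replicate 2 of E0771shCtrl and replicates 1 and 3 of E0771shPTN. The mitotic genes Cdc20 (0.41 and 0.59), Tpx2 (0.37 and 0.40) and Ccnb1 were shared and higher. In E0771 cells the adjusted p of Cdc20 was 0.0596 and 0.0539 without replicates 2 and 3 of E0771shCtrl. That of Tpx2 lay between 0.0691 and 0.121 without any replicate of E0771shCtrl or replicates 2 or 3 of E0771shPTN, and was 0.0649 with eBayes without trend and robust. Other annotated genes hold 35.6% of the words of 25 bases in Cdc20, so its count is uncertain. The p53 targets had 1 shared lower gene of 24, with medians of −0.05 and 0.13. This was Rrm2b, a subunit of the same reductase (−0.86 and −0.58), which lost its call in a line without replicates 2 or 3 of E0771shCtrl, 1 or 2 of E0771shPTN, 2 or 3 of E0771-LGshCtrl, or 1 or 2 of E0771-LGshPTN (larger adjusted p of the lines between 0.0511 and 0.186), and in E0771-LG cells without a filter (0.0545) and with eBayes without trend and robust (0.0579).

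Among 29 genes of glycolysis and hypoxia, Hk2 was shared and lower, 0 were shared and higher and Adm had opposite signs, with medians of 0.02 and 0.11. Hk2, the inducible hexokinase, went from 6.77, 6.84 and 6.78 to 6.13, 6.47 and 6.33 log2 CPM in E0771 and from 6.71, 6.94 and 6.93 to 5.97, 6.15 and 6.30 in E0771-LG cells. Cholesterol synthesis went apart between the lines, with medians of 0.37 and −0.22, 8 of 25 genes with opposite signs and 1 shared and higher, beside 3.36% and 2.07% of all genes. That gene, Hmgcs1 (0.37 and 0.32), lost its call in a line without replicates 2 or 3 of E0771shCtrl, 2 or 3 of E0771shPTN, 1 of E0771-LGshCtrl or 2 of E0771-LGshPTN (larger adjusted p of the lines between 0.0506 and 0.108). None of the 51 cytosolic ribosomal protein genes or 43 genes of oxidative phosphorylation was shared. On average 22 ribosomal protein genes were higher and 0 lower, beside 11.2% and 14.8% of all genes, with medians of 0.05 and 0.60. For oxidative phosphorylation 6 were higher and 1 lower on average, with medians of −0.02 and 0.46, the former 0.01 and 0.02 with quantile and median-of-ratios scaling. The most abundant members changed by 0.24 and 0.13 (Rplp0, adjusted p = 0.0802 and 0.243) and by 0.13 and 0.48 (Atp5b, adjusted p = 0.292 and 0.000177). Other annotated genes hold 57% of the words of 25 bases in Rplp0. The 3′ UTRs of Rplp0 (283 bases) and Atp5b (272 bases) fall in the shortest length bin, where all genes had medians of −0.03 and 0.35. The part of 3′ UTR length in these lists was not tested.

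Of 33 genes of the unfolded protein and integrated stress response, 3 were shared and lower, 1 shared and higher and 1, Atf4, had opposite signs, with medians of −0.15 and 0.19. Slc7a11, the cystine transporter that feeds glutathione synthesis, changed by −0.82 and −0.81. Ern1, the stress sensor IRE1α, changed by −0.55 and −1.19, and Slc7a5, a transporter of large neutral amino acids, by −0.30 and −0.77. In E0771 cells the adjusted p of Slc7a5 was 0.127 and 0.114 without replicates 2 and 3 of E0771shCtrl and 0.0844 and 0.0999 without replicates 1 and 3 of E0771shPTN, 0.0721 with median-of-ratios scaling and 0.0561 with eBayes without trend and robust. Atf5, a transcription factor of the stress response, rose by 0.56 and 1.04. Of 25 NRF2 and glutathione genes, Slc7a11 and Me1 were shared and lower and Tkt shared and higher, with 2 of opposite signs and medians of 0.03 and 0.14. Tkt and Me1, both enzymes whose routes yield NADPH, went in opposite directions, with 0.46 and 1.13 for Tkt and −0.37 and −0.41 for Me1. The adjusted p of Me1 in E0771 cells was 0.0536 without replicate 2 of E0771shCtrl, and 36.8% of its words of 25 bases occur in other genes.

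Of 30 lysosomal genes tested, 2 were shared and lower and 1 shared and higher, with medians of 0.07 and 0.45. Lipa, the lysosomal acid lipase, changed by −0.74 and −0.47, with an adjusted p in E0771-LG cells of 0.126 without replicate 2 of E0771-LGshCtrl and 0.0769 and 0.0877 without replicates 1 and 2 of E0771-LGshPTN, and 0.0535 with separate fits. Npc1, which exports cholesterol from lysosomes, changed by −0.31 and −0.72, and lost its call in a line without replicates 2 or 3 of E0771shCtrl, any replicate of E0771shPTN, replicate 3 of E0771-LGshCtrl or any replicate of E0771-LGshPTN (larger adjusted p of the lines between 0.0522 and 0.191). In E0771 cells its adjusted p was 0.0612 with separate fits, 0.0583 and 0.0838 with quantile and median-of-ratios scaling, and 0.0632 with eBayes without trend and robust. Gla, the α-galactosidase, changed by 0.47 and 0.34, with an adjusted p in E0771-LG cells of 0.0619 without replicate 1 of E0771-LGshCtrl and 0.0783 without replicate 2 of E0771-LGshPTN, and of 0.122 with quantile scaling and 0.0713 with each line fitted alone. Of 13 genes of the RNA interference machinery, 0 were shared and lower and Tarbp2 was shared and higher, with medians of −0.14 and −0.35. Tarbp2, a partner of Dicer, which shares 18.2% of its words of 25 bases with other genes, changed by 0.69 and 0.44. Its adjusted p in E0771-LG cells was 0.0703 without replicate 2 of E0771-LGshCtrl and 0.0612 without replicate 1 of E0771-LGshPTN.

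**Figure D4:**
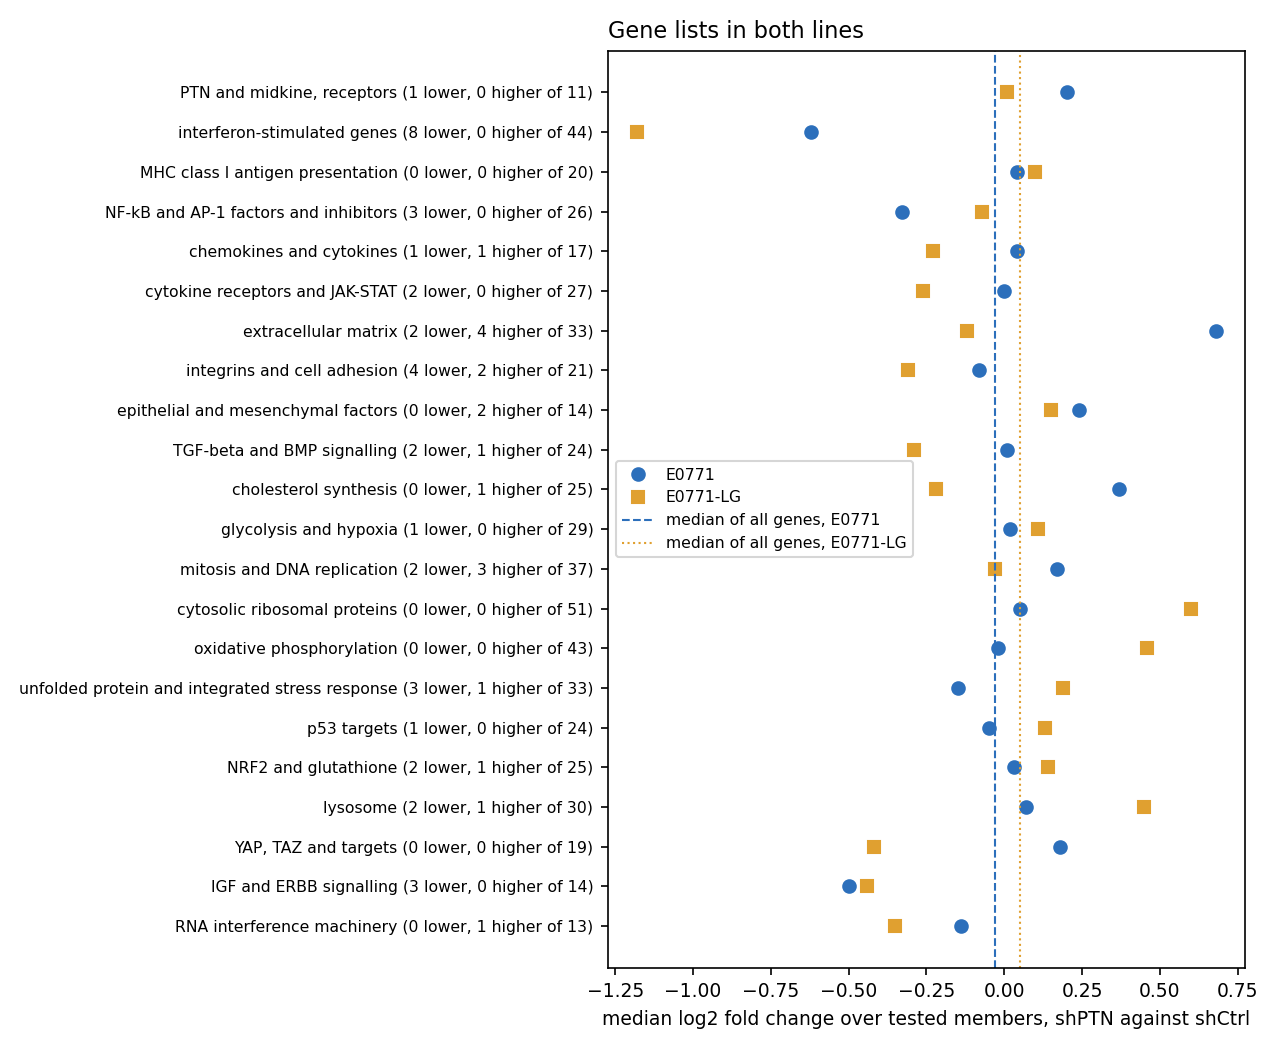
Median log2 fold change, shPTN against shCtrl, over the tested members of each gene list in E0771 (blue circles) and E0771-LG cells (orange squares), with dashed and dotted lines at the medians of all genes, −0.03 and 0.05. Numbers beside each name give the members that were shared and lower or higher. The interferon-stimulated genes lie farthest below 0 in both lines, at −0.62 and −1.18.

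Shared lower genes were unevenly spread over the genome. On chromosome 18, 43 of 255 tested genes were shared and lower (16.9%) and 2 were shared and higher (0.784%). The next highest share of lower genes was 7.87%, on chromosome 13, followed by 6.44% on the X chromosome. The chromosome 18 genes had medians of −0.13 and −0.47 in the respective lines, so they were lower on the whole in the latter, and Hbegf and Npc1 are among them. Leaving out this chromosome, 460 of 9979 genes were shared and lower (4.61%) and 210 shared and higher (2.10%), and 58.2% of the lower genes held a 3′ UTR word against 26.2% of all. Copy number was not measured in these samples, and its part was not tested.

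**Figure D5:**
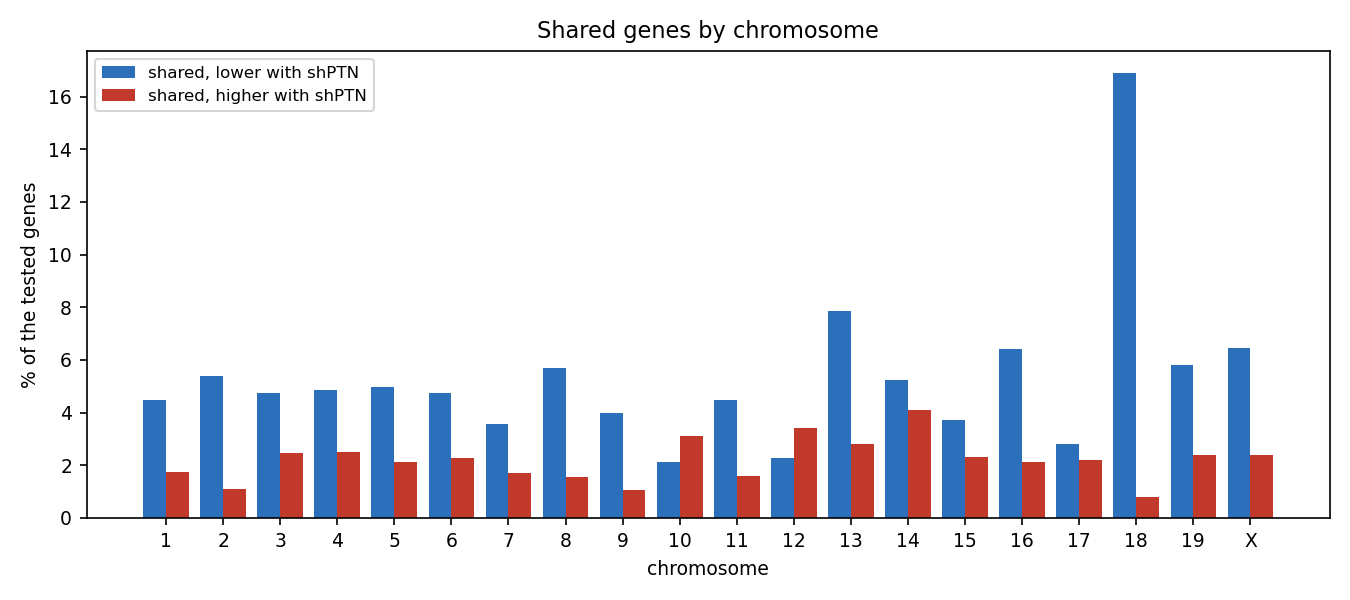
Percent of the tested genes of each chromosome with at least 100 tested genes that were shared and lower (blue) or shared and higher (red) with shPTN. Chromosome 18 stands out with 16.9% lower.

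The shared genes were then read in the tumors, whose samples had no part in choosing them. In 4T1 tumors 65.4% of the shared lower genes had a lower mean with the anti-PTN antibody 3B10 than with the control antibody C44, against 46.9% of all genes, and 40.1% of the shared higher genes did. The median difference of the lower genes was −0.07 against 0.01 over all genes, and the share was similar with and without the words, since 64.4% of lower genes with a word and 66.5% of those with neither were below 0. Sample by sample, the median of the lower genes relative to the C44 mean was 0.13, 0.16 and −0.28 in the C44 tumors and −0.32, 0.03 and 0.09 in the 3B10 tumors. The groups overlapped, and 1 tumor in each group was low. These tumors were also the lowest over all genes, at −0.09 with C44 and −0.1 with 3B10. In *MMTV-PyMT* tumors 41.0% of the shared lower genes and 44.3% of the shared higher genes were below 0, against 37.0% of all genes, with medians of 0.04 for both sets beside 0.06 over all. The per-tumor medians of the lower genes were −0.17, 0.07 and 0.09 with C44 and 0.04, 0.01 and 0.05 with 3B10, which also overlapped. In each model the median difference of the shared lower genes was thus smaller than the spread of their per-tumor medians with C44. The shares below 0 were not read tumor by tumor.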

How the data were processed

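The authors aligned paired-end reads to mm10 with HISAT2, counted them on genes with featureCounts and used limma and edgeR. They deposited a table of log2 values for 12091 genes in 24 samples, and the step that made these values is not given in the sources used here. In the 12 cell samples the deposited log2 values could be turned back into whole reads, given an offset of 0.5 reads (100% within 0.02). As the deposited values are logged, they were tested directly and not as counts, with limma 3.58.1 and statmod 1.5.0 in R 4.3.3, using trended and robust eBayes.

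Genes with at least 1 CPM in at least 3 of 6 samples of each line were tested. The average effect came from a model with cell line and shRNA, and the effects in each line and their difference from a model with 4 group means. Adjusted p means the limma p adjusted by Benjamini-Hochberg, per contrast, across all genes tested. The tests were tried on simulated data, and no value from that trial is given or used here. Named genes are Ptn, all tested PTN partners and up to 4 shared members of each list (or the most abundant member). Also named are 12 shared genes per direction with no overlap of groups and mean expression of 3 log2 CPM or more. These had the largest smaller effect of the lines. Some results for single genes and sites are left out of the text. Genes outside this rule are given as members of a list, as the genes at the threshold, or as picked after their values were seen. The members, lists and 3′ UTR words were chosen with earlier results of these data known. Positions, transcripts and 3′ UTRs are from GENCODE M21 (GRCm38), where 12091 of 12091 genes were found, and promoters from RefSeq (GRCm38.p6, 8188 tested genes). Words of 25 bases were counted in the longest transcript of each named gene after the values were seen. The tumors were described without a test, and 4T1 values are on another scale. Alternatives were other models, filters, scalings, pseudocounts, weights and thresholds, a replicate block, and leaving out each sample. Python 3.11.15, numpy 2.4.6, pandas 2.3.3 and matplotlib 3.10.9 were used for tables and plots.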

Additional observations from a re-analysis of the deposited data

Results flagged for a closer look

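The interaction term of limma tested whether the effect of shPTN differed between the lines. Among the 80 genes named by rule it passed for the 22 given here, and the other genes mentioned above are left out. The values are the log2 fold change in E0771-LG minus that in E0771 cells. Of the shared losses, those of Nap1l1 (0.56) and Gm4204 (0.39) were smaller in E0771-LG cells, and those of Gbp2 (−1.16), Nfkb1 (−0.40), Smad5 (−0.47), Ern1 (−0.64), Slc7a5 (−0.47) and Npc1 (−0.41) were larger. Of the shared gains, Aass (−0.81), Lyz2 (−0.96), Loxl2 (−1.31), Htra1 (−0.65), Itga7 (−0.64) and Lcp1 (−1.53) rose less in E0771-LG cells, and Bmp7 (2.93) and Tkt (0.67) rose more. Genes that were not shared and differed were Itgav (−0.83), Sdc4 (−0.66), Sdc2 (−0.75), Atp5b (0.35), Axl (−1.40) and Pdgfra (−2.10).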

How the results depend on the processing

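None of the 80 named genes changed the sign of a called average effect under any alternative run. Ptn passed the average test in every alternative in which it was tested, with changes between −1.97 (pseudocount of 1 CPM) and −2.82 (quantile scaling). It was too low for the filter at 10 CPM. Of the 64 named shared genes, 41 were shared whichever single library was left out. Between 46 and 60 were shared without a given library, and between 56 and 64 in the other refits.

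With 4 group means in place of a line term, 2269 genes were lower and 2038 higher on average, and the 715 shared genes were the same. At an adjusted p under 0.01, 750 were lower and 362 higher on average, 234 and 68 were shared, and 104 had opposite signs. With a log2 fold change of at least 1 in each line, 33 lower and 24 higher genes were shared and 18 had opposite signs. Filters, scalings, the pseudocount, voom weights, separate fits and eBayes without trend and robust gave between 660 and 752 shared genes. Leaving out 1 library at a time gave 1140 to 1751 genes lower and 700 to 1626 higher on average, 295 to 575 lower and 124 to 246 higher shared genes, and 165 to 387 with opposite signs. Ptn ranged from −2.68 to −2.42.

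Replicate numbers were no pairing, since same-numbered samples correlated with r between −0.137 and 0.229 and 2 of 6 pairs correlated best with their own number. With the number as a block, 949 genes were lower and 527 higher on average, 517 lower and 228 higher genes were shared, and 354 had opposite signs. The adjusted p of Ptn was 0.00204 with the block. Genes with few reads, such as Ptn and Itga2 in shPTN cells, are limited by depth. The causes of these shifts were not tested.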
